A study of Mus musculus with 6 samples.

Results

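The genes described here load peptides onto MHC class I molecules and present them at the cell surface. A list of 10 genes was set by name: the class I heavy chains H2-K1, H2-D1 and H2-T23 with the light chain B2m, the peptide transporter Tap1 and Tap2 with the loading factor Tapbp, and the immunoproteasome subunits Psmb8, Psmb9 and Psmb10. Probe sets were taken where the platform annotation gives a member as their only gene symbol. That found 26 probe sets for 9 of the 10 genes, of 45037 probe sets and 18193 genes with a symbol of their own in all. H2-T23 has no probe set that names it alone, so it has no value here. A further 5 probe sets carry several symbols with a member among them, 2 of them with H2-T23, and were left out of the counts.

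GLMT1 is a tumour cell line named GRS/A Lung Metastasis Tumor 1. Its cells were placed below the dorsal skin of male hosts, and total RNA of the excised tumours was hybridised to 1-colour Affymetrix arrays. WT hosts were GRS/A with the gene for tenascin-C, a glycoprotein of the extracellular matrix, intact. TNKO hosts were GRS/A-TgH(TnC), deficient in it. There were 3 tumours of each host, each described as a biological replicate. Hosts were 8 weeks old at the start and are given as 10 weeks old in the sample labels. All 6 tumours came from the same cell line, which the labels do not describe as lacking tenascin-C. The comparison asks what the loss of host tenascin-C does to gene expression in the tumour.

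Class I molecules consist of a heavy chain, a light chain and a short peptide. Proteasomes cut proteins of the cell into peptides, the Tap1 and Tap2 transporter carries them into the endoplasmic reticulum, and Tapbp (tapasin) holds the transporter and the empty class I molecule together while a peptide is loaded. Interferons raise the transcription of most of these genes and exchange the catalytic subunits of the standard proteasome for those of the immunoproteasome. CD8 T cells read the loaded molecule, and tumours often show low levels of this set.

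Promoter sequences are shown for 4 stretches, upstream of 5 of the 6 members that have a window and in which every TNKO tumour lay below every WT tumour. They show the paired heavy chain promoters, the light chain and the interval shared by Psmb9 and Tap1, and the window of Psmb8 is not printed. They come from RefSeq, build GRCm38.p6, in which a window was found for 9 of the 10 members (none for Tap2). Each reads 5′ to 3′ along the strand given and stops before the annotated start of its own gene. Capitals mark matches on either strand to GGGATTCCC (a kappa B site), GAAGTGAAA and GAAANNGAA (interferon response elements), TGACG (the core of a cyclic AMP response element) and CCAAT. The first covers 250 bases upstream of H2-K1 at chr17:34000348-34000597 (minus strand), the next 250 bases upstream of H2-D1 at chr17:35262844-35263093 (plus strand) and the third 250 bases upstream of B2m at chr2:122147437-122147686 (plus strand). The last is the whole interval of 225 bases between the starts of Psmb9 and Tap1, which are transcribed away from each other, at chr17:34187331-34187555 (plus strand).
H2-K1: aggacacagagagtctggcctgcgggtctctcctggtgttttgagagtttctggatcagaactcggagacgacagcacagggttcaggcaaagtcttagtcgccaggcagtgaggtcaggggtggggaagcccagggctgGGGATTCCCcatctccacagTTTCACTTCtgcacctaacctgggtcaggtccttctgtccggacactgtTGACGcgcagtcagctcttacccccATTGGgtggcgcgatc
H2-D1: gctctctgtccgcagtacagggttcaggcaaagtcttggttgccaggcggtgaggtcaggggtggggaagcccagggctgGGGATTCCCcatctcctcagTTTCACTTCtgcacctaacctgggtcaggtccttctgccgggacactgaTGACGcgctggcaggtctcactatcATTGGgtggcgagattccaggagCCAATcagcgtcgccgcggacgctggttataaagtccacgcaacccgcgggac
B2m: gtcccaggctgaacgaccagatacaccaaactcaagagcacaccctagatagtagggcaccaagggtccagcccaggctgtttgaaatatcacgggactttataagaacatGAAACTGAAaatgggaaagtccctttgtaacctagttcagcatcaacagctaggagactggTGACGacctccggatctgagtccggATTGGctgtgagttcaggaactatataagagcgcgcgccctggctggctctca
Psmb9-Tap1 interval: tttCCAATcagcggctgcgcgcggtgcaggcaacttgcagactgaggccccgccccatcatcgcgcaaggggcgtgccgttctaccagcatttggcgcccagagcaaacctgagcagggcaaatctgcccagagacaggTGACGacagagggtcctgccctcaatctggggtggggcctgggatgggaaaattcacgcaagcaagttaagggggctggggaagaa

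In H2-K1 and H2-D1 the kappa B match, the GAAGTGAAA match, the TGACG match and the nearest CCAAT match followed in the same order at the same spacing. With the kappa B matches set against each other, a shift of 60 bases, 166 of 190 bases (87.4%) were identical. Over the 250 bases before the start of 27025 RefSeq genes, GGGATTCCC was found in 0.311% and GAAGTGAAA in 0.429%, and among the 9 members with a window each was found in 2, the heavy chain genes H2-K1 and H2-D1. GAAANNGAA was found in B2m and H2-T23, against 7.16% of all genes. TGACG was found in 5 of the 9 (17.9% of all) and CCAAT in 7 of the 9 (34.5% of all). A further motif searched, TTCNNNGAA, was found in 1 of the 9, Psmb8 (7.18% of all). None of these motifs overlapped another in the stretches shown. The motifs were chosen with these promoters known. The matches describe letters in these windows and were not tested for binding. Psmb9, Tap1, Psmb8 and Tap2 follow each other on chromosome 17 with no other annotated gene between them. Tapbp and the heavy chain genes lie elsewhere on the same chromosome, B2m on chromosome 2 and Psmb10 on chromosome 8.

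The deposited values are on a log2 scale and vary very little between arrays. All 6 array medians were 6.57, and the median probe set spanned 5.46 millionths of a deposited log2 unit over the arrays. Differences are therefore given in millionths of a deposited log2 unit and as multiples of the residual SD (a probe set's SD inside the groups), and they cannot be read as fold changes. A deviation is the value in a tumour minus the mean of that probe set over the 6 tumours. Differences are TNKO minus WT. Tnc, which encodes tenascin-C, had a level of 9.02 ± 0.0243 (SD, n = 3) in WT and 8.82 ± 0.0181 (SD, n = 3) in TNKO tumours, with a limma adjusted p of 0.0537. Among markers of the tissue, Krt8 (11.45), Krt7 (9.17) and Krt18 (8.92) were bright epithelial keratins, while 3 of 8 epithelial markers lay below the median level of all probe sets. All 10 macrophage and all 8 fibroblast markers lay above that level, and the tumours were not sorted, so fewer cells of a type and less RNA per cell cannot be told apart. The labels name no batch, and the number of arrays limits the precision.

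All 9 measured members had a lower mean in TNKO hosts, each read from its brightest probe set, and none passed limma's test over all probe sets. By that rule 0 of 9 members were called, against 0.121% of all genes, and 0 of 26 member probe sets, against 0.175% of all probe sets. The lowest adjusted p of a member's brightest probe set was 0.118 (B2m). The mean was lower in 9 of 9 as deposited, against 42.4% of all genes. With quantile normalized values it was lower in every member but B2m, whose difference of -3.31e-09 millionths is in effect a tie. With array medians subtracted it was lower in 9 of 9. Those scalings put 98.5% and 99.2% of all probe sets lower, by a median of -538 and -764 millionths, and 7 and 9 of the 9 members lay below that median. In 7 of the 9, all but Tapbp and Psmb10, every TNKO tumour lay below every WT tumour. That held for 11.1% of all genes and for 16.1% of genes above the median level of all probe sets, where all 9 members lie. The same 7 had an unadjusted p under 0.05 by limma with TNKO lower, against 8.43% of all genes and 12.6% of genes above that level. Under either scaling 0 of 9 had an unadjusted p under 0.05 by limma. In either direction 591 (quantile) and 87 (array medians) of all 45037 probe sets had one. Without TNKO tumour 2 only H2-K1, H2-D1 and B2m had an unadjusted p under 0.05 by limma, beside 7035 of all 45037 probe sets in either direction. An exact two-sided permutation test of 3 against 3 tumours cannot go below 0.10. These genes were put forward with earlier results of these data known, so their shared direction is a description.

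**Figure D1:**
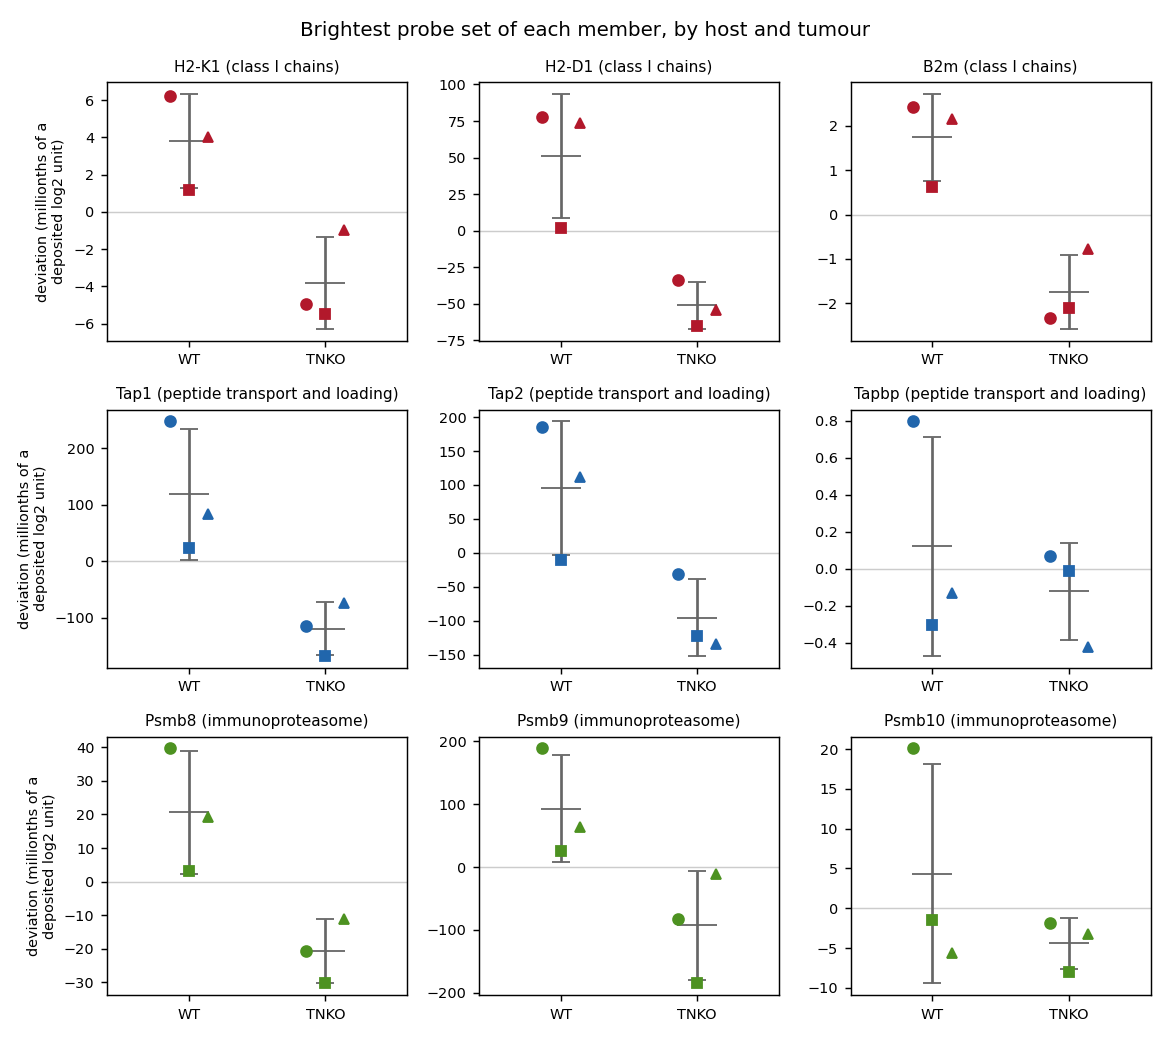
Deviation of each tumour from the mean of the 6 (y axis, millionths of a deposited log2 unit, a separate scale in each panel) for the brightest probe set of 9 members, by host (x axis); circles, squares and triangles are tumours 1, 2 and 3, and bars are mean ± SD (n = 3). In 7 panels the TNKO tumours all lie below the WT tumours, and in the Tapbp and Psmb10 panels they overlap.

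The class I chains were the role in which every measured member separated the hosts in its brightest probe set. B2m, the light chain shared by all classical class I molecules, had a level of 13.35, above 99.9% of probe sets. Its deviations were 2.44, 0.625 and 2.17 millionths in WT tumours 1 to 3 and -2.33, -2.1 and -0.785 in TNKO tumours 1 to 3. The groups did not overlap, WT tumour 1 was the highest and TNKO tumour 1 the lowest. B2m differed by -3.48 millionths (SE 0.724, adjusted p = 0.118), or -3.83 residual SDs. Its other probe set, at 13.13, differed by -4.2 millionths (-5.53 residual SDs, adjusted p = 0.0809) and again did not overlap. Both B2m probe sets spanned about as little as the median probe set, 4.77 and 5.36 millionths.

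H2-K1, a classical heavy chain, had deviations of 6.21, 1.17 and 4.04 millionths in WT tumours 1 to 3 and -4.95, -5.49 and -0.963 in TNKO tumours 1 to 3 at a level of 12.60. TNKO tumour 3 lay closest to the WT tumours, and the groups did not overlap. H2-K1 differed by -7.61 millionths (SE 1.92, adjusted p = 0.148), or -3.04 residual SDs. All 4 of its probe sets had a lower TNKO mean (45.6% of all probe sets), by -7.61 to -43.9 millionths. In 3 of the 4 the groups did not overlap, against 13.8% of all probe sets with TNKO lower and 21% of those above the median level.

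H2-D1, the other classical heavy chain measured, had deviations of 77.4, 2.12 and 73.5 millionths in WT tumours 1 to 3 and -33.6, -65.2 and -54.2 in TNKO tumours 1 to 3 at a level of 12.34. WT tumours 1 and 3 were high, WT tumour 2 lay near the mean, and every TNKO tumour was below it. H2-D1 differed by -102 millionths (SE 24.5, adjusted p = 0.139), or -3.18 residual SDs. Of its 9 probe sets 8 did not overlap, against 13.8% of all probe sets with TNKO lower and 21% of those above the median level. The exception, at 6.02 and below the median level of all probe sets, differed by 0.154 millionths.

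Heavy chain probe sets are not independent of each other. Of the 13 for H2-K1 and H2-D1, 11 are of the _x_at kind, which by the platform's naming hold probes that also match other transcripts, and class I genes resemble each other closely. All 4 probe sets of H2-K1 are of that kind, so H2-K1 has no reading free of such probes. The brighter of the 2 H2-D1 probe sets that are not of that kind had a level of 8.24. Its deviations were 25.5, 10.06 and 30.1 millionths in WT tumours 1 to 3 and -20.5, -22.2 and -23 in TNKO tumours 1 to 3. The TNKO tumours lay within a few millionths of each other, all below the WT tumours. It differed by -43.8 millionths (SE 5.71, adjusted p = 0.0737), or -5.86 residual SDs. The lowest adjusted p of any member probe set was 0.0702, at an _x_at probe set of H2-D1 with a level of 6.98 (-33.4 millionths, -6.41 residual SDs), which passed when only probe sets above the median level were tested. Without WT tumour 2, 2 other H2-D1 probe sets passed.

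Among the genes of peptide transport and loading, Tap1 and Tap2 separated the hosts and Tapbp did so in its dimmer probe set. Tap1, a subunit of the transporter, had deviations of 248, 24.3 and 84.3 millionths in WT tumours 1 to 3 and -115, -167 and -74 in TNKO tumours 1 to 3 at a level of 8.49. WT tumour 1 stood far above the others and the groups did not overlap. Tap1 differed by -238 millionths (SE 67.3, adjusted p = 0.172), or -2.69 residual SDs. Its span of 415 millionths was wider than that of 97% of probe sets. The other 3 Tap1 probe sets lay below the median level of all probe sets, from 5.51 to 6.07, overlapped between hosts and differed by -3.84, 1.88 and 0.275 millionths.

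Tap2, the other transporter subunit, was read from 1 probe set at a level of 9.52. Its deviations were 185, -9.93 and 111 millionths in WT tumours 1 to 3 and -30.5, -122 and -134 in TNKO tumours 1 to 3. WT tumour 2 and TNKO tumour 1 lay next to each other across the gap between the hosts, which did not overlap. Tap2 differed by -191 millionths (SE 61.2, adjusted p = 0.201), or -2.38 residual SDs.

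Tapbp gave 2 unlike readings. Its bright probe set, at 11.52, had deviations of 0.798, -0.302 and -0.132 millionths in WT tumours 1 to 3 and 0.068, -0.012 and -0.422 in TNKO tumours 1 to 3, and the groups overlapped. It differed by -0.243 millionths (SE 0.407, adjusted p = 0.792), and by 0.095 without WT tumour 1. The dimmer probe set, at 8.04, had deviations of 76.1, -8.92 and 49.2 millionths in WT tumours 1 to 3 and -38.7, -38.8 and -39 in TNKO tumours 1 to 3. There the TNKO tumours were nearly equal and all below WT. That probe set differed by -77.6 millionths (SE 23.5, adjusted p = 0.186), or -2.53 residual SDs, so which Tapbp probe set stands for the gene decides whether it separated the hosts.

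Of the immunoproteasome subunits, Psmb8 and Psmb9 separated the hosts and Psmb10 did not. Psmb8 (LMP7), which replaces Psmb5 of the standard proteasome, had deviations of 39.7, 3.1 and 19.2 millionths in WT tumours 1 to 3 and -20.6, -30.3 and -11.1 in TNKO tumours 1 to 3 at a level of 11.31. Its WT tumours were high in the order 1, 3, 2, as in most members. Psmb8 differed by -41.3 millionths (SE 11.2, adjusted p = 0.162), or -2.83 residual SDs, and its dimmer probe set by -7.25 (-2.73 residual SDs), also without overlap.

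Psmb9 (LMP2), which replaces Psmb6, had deviations of 189, 25.6 and 64.2 millionths in WT tumours 1 to 3 and -82.4, -185 and -11.4 in TNKO tumours 1 to 3 at a level of 10.11. TNKO tumour 2 was far below the others and TNKO tumour 3 close to WT tumour 2. Psmb9 differed by -186 millionths (SE 65.7, adjusted p = 0.226), or -2.16 residual SDs. Psmb9 and Tap1, which share the interval printed above, had the same tumour at the top (WT tumour 1) and at the bottom (TNKO tumour 2), and TNKO tumour 3 was the highest TNKO tumour in both. The same 3 traits were seen in H2-K1 and Psmb8, which do not share that interval, so they are not particular to the pair.

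Psmb10 (MECL-1), which replaces Psmb7, had deviations of 20.1, -1.41 and -5.56 millionths in WT tumours 1 to 3 and -1.88, -7.98 and -3.24 in TNKO tumours 1 to 3 at a level of 10.74. Only WT tumour 1 stood apart and the groups overlapped. Psmb10 differed by -8.74 millionths (SE 7.63, adjusted p = 0.583), or -0.87 residual SDs, and by -0.88 millionths without WT tumour 1.

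By role, the median difference of the members was -3.18 residual SDs for the 3 class I chains, -2.38 for transport and loading and -2.16 for the immunoproteasome. The median was 0.28 over all genes and -0.095 over genes above the median level of all probe sets. In millionths the order was another: -7.61 for the chains, -191 for transport and loading and -41.3 for the immunoproteasome. Spans differed within each role: B2m spanned more than 46.4% of all probe sets, H2-K1 more than 68.6% and H2-D1 more than 94.2%. Tap1, Tap2 and Psmb9 were among the widest of all (96.5% to 97% spanned less), and Tapbp was the narrowest member (15.7%). A difference between the roles was not tested. Every member had its highest value in WT tumour 1, and the lowest was in TNKO tumour 2 for 6 of 9, in TNKO tumour 3 for Tap2 and Tapbp and in TNKO tumour 1 for B2m. Members still had a lower TNKO mean in 8 of 9 without WT tumour 1 (46% of all probe sets), the exception being Tapbp. An unadjusted p under 0.05 by limma was then seen in 5 of the 9, and in 7144 of all 45037 probe sets in either direction.

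**Figure D2:**
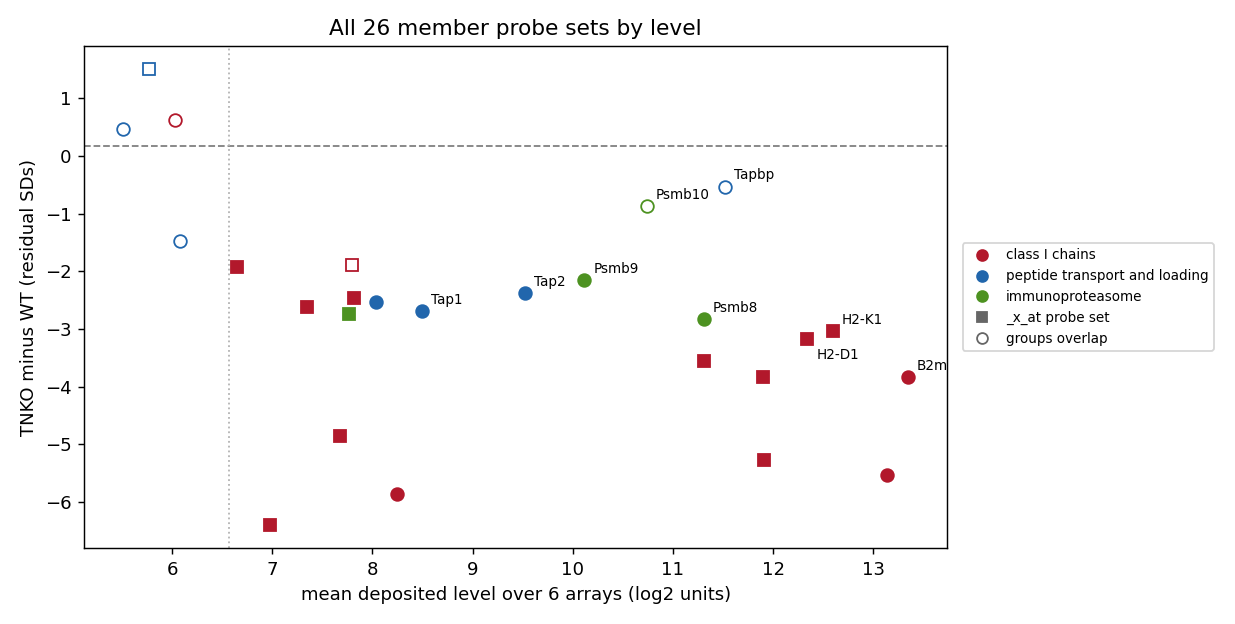
TNKO minus WT difference in residual SDs (y axis) against the mean deposited level in log2 units (x axis) for 26 member probe sets, coloured by role; filled symbols have no overlap between hosts, squares are _x_at probe sets, names mark the brightest probe set of each gene, the dashed line is the median difference and the dotted line the median level of all probe sets. All 22 member probe sets to the right of the dotted line lie below 0, and the 4 to its left lie between -1.48 and 1.51.

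The pattern was seen in probe sets above the median level. Counting every probe set, 23 of 26 had a lower TNKO mean (45.6% of all), 19 of 26 did not overlap with TNKO lower (13.8% of all) and 18 of 26 had an unadjusted p under 0.05 with TNKO lower (10.8% of all). Of the 22 member probe sets above the median level, 19 did not overlap (21% of all probe sets above it) and 18 had such a p (17%). Of the 4 below it, 3 of Tap1 and 1 of H2-D1, 0 did either. With the _x_at probe sets left out, 8 of the 10 above the median level did not overlap. Of the 5 probe sets with several symbols, 3 had a lower TNKO mean and 2 did not overlap.

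The rest of the class I pathway was mixed. Among 12 other class I and class I-like genes 5 had a lower and 7 a higher TNKO mean. Mr1, which presents vitamin metabolites to innate-like T cells, differed by -347 millionths (adjusted p = 0.0946) and H2-T24 by -260 (adjusted p = 0.236), while H2-T3 differed by 28.7 (adjusted p = 0.207). Groups with TNKO lower and no overlap were seen in 3 of the 12 (11.1% of all genes) and with TNKO higher in 2 (15% of all genes).

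Chaperones and peptide trimming enzymes had a lower TNKO mean in 8 of 11. In 4 of the 11 all TNKO tumours lay below WT (11.1% of all genes), and in 2, Calr and Uggt1, all lay above (15%). Tapbpl, a relative of tapasin that edits peptides, differed by -127 millionths (-2.75 residual SDs, adjusted p = 0.167). Pdia3, the oxidoreductase bound to tapasin in the loading complex, differed by -14.2 (-3.11 residual SDs, adjusted p = 0.143) and the chaperone Hspa5 by -5.86 (adjusted p = 0.176). None of the 11 passed limma's test, and 4 of them had an unadjusted p under 0.05 with TNKO lower (8.43% of all genes).

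The standard proteasome was mixed as well. Of 14 core subunits 8 had a lower and 6 a higher TNKO mean, with a median of -0.26 residual SDs. An unadjusted p under 0.05 was seen with TNKO lower in 2, Psma1 and Psmb7 (8.43% of all genes), and with TNKO higher in 1, Psmb3 (9.99%). Psmb5, the partner replaced by Psmb8, differed by -0.793 millionths (adjusted p = 0.386), and Psmb6, the partner of Psmb9, by 0.387 (adjusted p = 0.571). Psmb7, the partner of Psmb10, differed by -42.5 (adjusted p = 0.13) with TNKO tumours all below WT, while Psmb10 itself overlapped. Psmb3, a core subunit with no exchange partner, had the opposite sign, with deviations of -26.6, -18 and -21.4 millionths in WT tumours 1 to 3 and 24.4, 16.6 and 25 in TNKO tumours 1 to 3. It differed by 44 millionths (adjusted p = 0.0524), the lowest adjusted p of the pathway lists, and passed when only probe sets above the median level were tested. Among activators and assembly factors 5 of 7 were lower, with Psme1, a subunit of the interferon-induced activator PA28, at -2.31 millionths (adjusted p = 0.253), Psmf1 at -12 (adjusted p = 0.2) and Psme4 at 3.77 (adjusted p = 0.303). Psme2 has no probe set that names it alone.

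**Figure D3:**
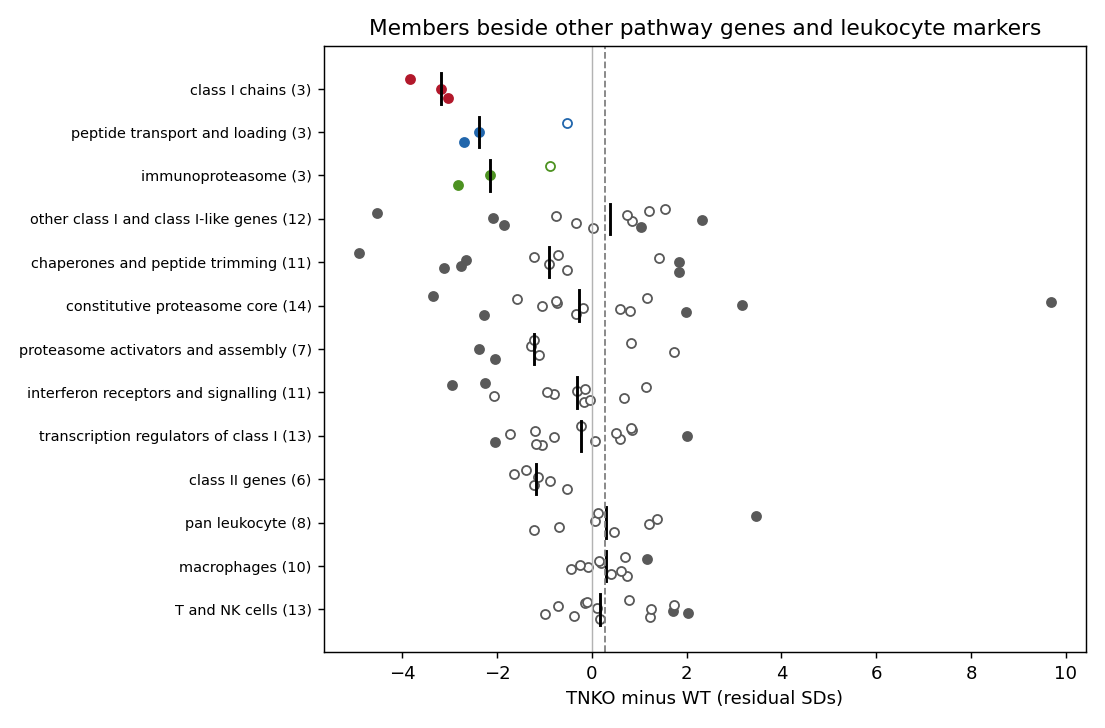
TNKO minus WT difference in residual SDs (x axis) for the brightest probe set of each gene, by list with the number of genes measured (y axis); filled points have no overlap between hosts, black bars are list medians, the solid line is 0 and the dashed line is the median of all genes. The 3 member lists have medians of -3.18, -2.38 and -2.16, and the standard proteasome core has a median of -0.26.

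Among 13 genes that regulate class I transcription, Irf2 did not overlap with TNKO lower (1 of 13, against 11.1% of all genes). Rfxank did not overlap with TNKO higher (1 of 13, against 15% of all genes), and the others overlapped. Nlrc5, the class I transactivator, had deviations of 294, 113 and -52.5 millionths in WT tumours 1 to 3 and -199, -335 and 179 in TNKO tumours 1 to 3. TNKO tumour 3 was above WT tumours 2 and 3, so Nlrc5 overlapped where 7 members did not. It differed by -236 millionths (SE 171, adjusted p = 0.505). Irf1, an interferon-induced activator of these promoters, differed by -70.1 (SE 45.5, adjusted p = 0.458), with WT tumour 2 below 2 of the TNKO tumours. Of 13 such regulators 7 were lower and 6 higher, with Irf2 at -2.21 millionths (adjusted p = 0.253), Rfxank at 2.49 (adjusted p = 0.254) and Creb1 at -1.35 (adjusted p = 0.325).

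Interferon receptors and signalling genes were lower in 9 of 11, with a median of -0.31 residual SDs. Stat2 differed by -48.9 millionths (adjusted p = 0.153) and Irf9 by -88.5 (adjusted p = 0.214), both partners in the complex that type I interferon activates. They were the 2 of 11 genes with TNKO lower and no overlap. That held for 11.1% of all genes and 16.1% of genes above the median level of all probe sets. Ifngr2, a chain of the interferon gamma receptor, differed by -188 (adjusted p = 0.238) with overlap. Ifng itself was dim at 5.74 and differed by -0.088 millionths (adjusted p = 0.946).

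Class II genes, which present peptides on professional antigen-presenting cells, shared the sign but not the order of tumours. All 6 had a lower TNKO mean (42.4% of all genes) and all 6 overlapped. Over all genes, 11.1% did not overlap with TNKO lower, so overlap in 6 of 6 is close to that share. H2-Ab1 differed by -1126 millionths (adjusted p = 0.446), H2-DMa by -294 (adjusted p = 0.385) and Ciita, the class II transactivator, by -14.4 (adjusted p = 0.325). In TNKO tumour 3 the mean standardised level (each gene scaled to mean 0 and SD 1 over the 6 tumours) was 0.598 for class II, and -0.482, -0.84 and -0.278 for the chains, transport and loading, and immunoproteasome. TNKO tumours 1 and 2 were low in class II and in the members alike.

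**Figure D4:**
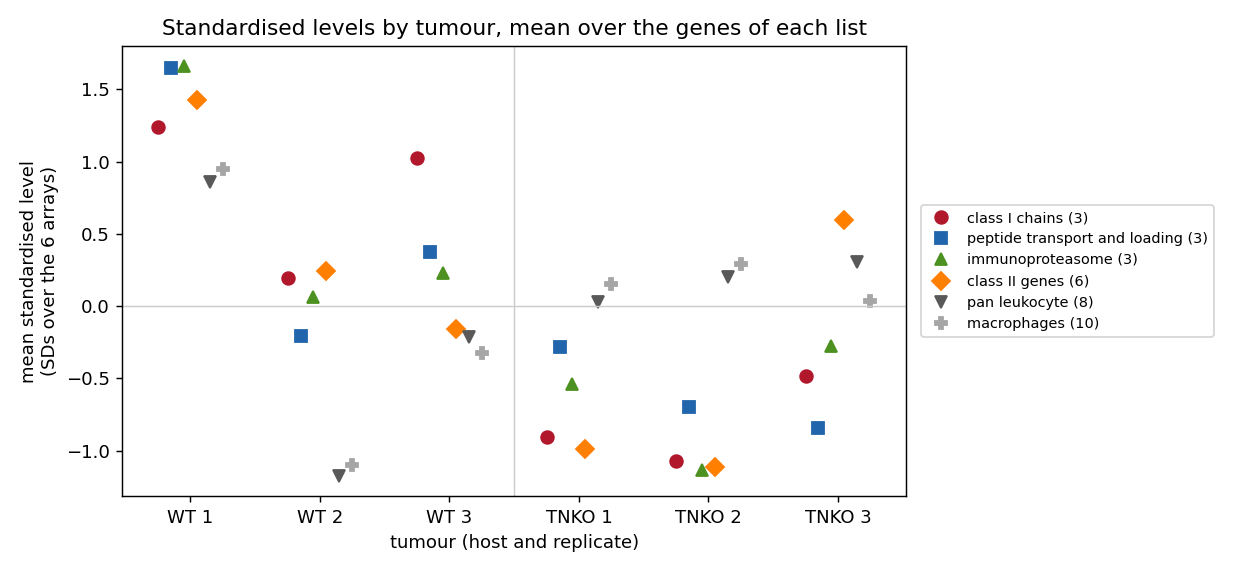
Mean standardised level of each list (y axis, SDs over the 6 arrays) in each tumour (x axis); symbols are lists, with the number of genes in brackets. The 3 member lists lie at or below -0.278 in the 3 TNKO tumours, while class II genes stand at 0.598 in TNKO tumour 3 and pan leukocyte markers at 0.026 to 0.304.

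Leukocyte markers were mixed, beside 42.4% of all genes with a lower TNKO mean. Pan leukocyte markers had a higher TNKO mean in 6 of 8, and their summed deviation ran from -230 to 139 millionths in WT and from 43.2 to 85.9 in TNKO tumours. Macrophage markers were higher in 7 of 10, with sums of -3877 to 820 in WT and 692 to 1497 in TNKO tumours. T and NK cell markers were higher in 8 of 13, with sums of -176 to 207 in WT and -105 to 210 in TNKO tumours. Of those 13, 9 lay below the median level of all probe sets, Cd3d, Cd3g and Cd8b1 among them. WT tumour 1, highest in every member, was also the highest tumour in the mean of pan leukocyte (0.856), T and NK cell (0.588) and macrophage markers (0.947). Dendritic cell markers were lower in 5 of 7, with sums of -99.6 to 123 in WT and -82.1 to 49 in TNKO tumours, and B cell markers were lower in 0 of 5, with sums of -7.87 to 2.86 and -8.63 to 21.5. By mean standardised level, B cell markers ran from -0.713 to 0.089 in WT and from 0.114 to 0.750 in TNKO tumours. Neutrophil markers ran from -0.768 to -0.573 and from 0.412 to 0.962, so both lists were higher in every TNKO tumour on that scale. Of these, 4 of 5 B cell and 4 of 8 neutrophil markers lay below the median level of all probe sets. Their lowest limma adjusted p was 0.405 (B cell) and 0.132 (neutrophil), and standardising gives dim genes with small differences the same weight as others. The part of these cells in the lower member values was not tested.

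Gene means of other marker lists differed between the hosts too, but in each list most genes overlapped between the hosts. Skeletal muscle markers were lower in 8 of 8 and epithelial markers in 6 of 8. Neutrophil, endothelial and adipocyte markers were higher in 8 of 8, 8 of 8 and 6 of 6, fibroblast markers in 7 of 8, and hair and epidermis markers in 4 of 8. TNKO lower without overlap was seen in 1 of 8 muscle, 1 of 8 epithelial and 1 of 8 fibroblast markers (11.1% of all genes). TNKO higher without overlap was seen in 3 of 8 neutrophil, 2 of 8 endothelial, 1 of 8 hair and epidermis and 0 of 6 adipocyte markers (15%). The summed deviation of muscle markers ran from 768652 to 2136740 millionths in WT and from -3286400 to 1855270 in TNKO tumours, and that of epithelial markers from -37.9 to 561 and from -1316 to 1260. Hair and epidermis markers had sums of -1657770 to -1594090 in WT and -1702590 to 8063520 in TNKO tumours. TNKO tumour 3 stood apart there, through Krtap8-1 (5472900) and Krt25 (2538540). Without TNKO tumour 3, 9 of 9 members still had a lower TNKO mean (45% of all probe sets). Of the 9, 6 then had an unadjusted p under 0.05 by limma, beside 8443 of all 45037 probe sets in either direction. Neutrophil markers had sums of -1334 to -507 in WT and -947 to 2237 in TNKO tumours, and endothelial markers of -1380.4 to -164 and -37.6 to 1316. Fibroblast markers had sums of -16625 to 1583 in WT and -979 to 10016 in TNKO tumours, and adipocyte markers of -1662890 to 95698 and -392281 to 1949650. Of 5 probe sets at the 5′ end of control genes of the mouse, 4 had all TNKO tumours below WT, as did 4 of 6 in the middle and 2 of 5 at the 3′ end. The other 2 in the middle had all TNKO tumours above WT. The TNKO mean was lower in 4 of 5 at the 5′ end, 4 of 6 in the middle and 4 of 5 at the 3′ end. The 18 hybridisation controls, which hold no mouse RNA, had a higher TNKO mean in 18 of 18. In 16 of the 18 all TNKO tumours lay above WT, and 13 had an unadjusted p under 0.05 by limma with TNKO higher. The lower member values share their direction with most mouse control probe sets and oppose the hybridisation controls, and the part of either was not tested.

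Over the 6 tumours Tap1 had the profile nearest to that of the other members. Likeness was the root mean square distance between standardised profiles, with 0 for the same shape, and each member was set against the mean of the other 8. Tap1 had a distance of 0.104 and ranked 1 among the genes compared, and Psmb8 ranked 4 at 0.155. Tap2 (0.331), Psmb9 (0.318), H2-D1 (0.36) and H2-K1 (0.35) ranked between 88 and 125 and B2m 222 (0.416). Psmb10 ranked 1189 at 0.611 and Tapbp 2654 at 0.812, the same 2 genes that overlapped between hosts. The 5 other genes nearest to the mean of all 9 members were Prkcd (0.112), Os9 (0.15), Tmem140 (0.152), Susd2 (0.154) and Crlf2 (0.159), all with WT tumour 1 highest and TNKO tumour 2 lowest. Over 6 tumours and 18193 genes many profiles come close, and nearness is a description of these arrays.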

How the data were processed

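RNA of 6 tumours, 3 from WT and 3 from TNKO hosts, was measured; 100 ng of total RNA was labelled per array, per the labels' protocols. The authors normalized the deposited values, which were taken as log2 from their range. The submitters' processing notes name R 2.7.2. The summarization, the normalization method and the log base are not stated in the sources used. Of 45101 probe sets, 64 controls were left out of the tests. Symbols came from the platform annotation, checked by gene identifier (0 changed): 34945 probe sets had 1 symbol, 932 several and 9160 none. A gene was read from its brightest probe set.

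TNKO minus WT was fitted over all 45037 probe sets with limma 3.58.1 in R 4.3.3 (lmFit, eBayes, two-sided, Benjamini-Hochberg, threshold 0.05) and checked on simulated data. Arrays of a pair shared 21 to 43 identical values, so none was a copy. Named were all members with all probe sets, Psmb5, Psmb6, Psmb7, Psme1, Psme2, Nlrc5, Irf1, Ifng and Tnc, the 3 genes of each pathway list with the lowest p, and the 5 nearest profiles; markers, and the motifs searched, were named outside this rule. An item withheld for evaluation is not reported here. Members and lists were chosen with earlier results of these data known. Alternatives were a quantile scaling, array medians subtracted, a robust or a trended eBayes, weighted arrays, an offset of 16, a filter at the median level, a replicate block, leaving out each array, and the mean over a gene's probe sets.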

Additional observations from a re-analysis of the deposited data

How the results depend on the processing

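Under all 15 alternatives 0 of the 9 members were called from 1 value per gene, and the count of members with a lower TNKO mean was 9, or 8 without WT tumour 1, when the bright Tapbp probe set turned to 0.095 millionths (-0.455 to 0.095 with each array left out). The 9 under quantile normalization takes in B2m, whose difference there was -3.31e-09 millionths, in effect a tie. Of the member probe sets, 1 was called when only probe sets above the median level were tested (an _x_at probe set of H2-D1), and 0 to 2 were called with each array left out. The 2 were H2-D1 probe sets without WT tumour 2. The median member difference of -2.69 residual SDs became -0.82 with quantile normalization and -0.86 with array medians subtracted, and ran from -4.05 to -2.22 with each array left out, the former without WT tumour 2. Over all probe sets the 79 calls became 285 above the median level, 0 with quantile normalization (591 at an unadjusted limma p under 0.05), 0 with the replicate block (7816) and 0 to 73 with each array left out: 0 without WT tumour 1 (7144) or WT tumour 3 (6807), 73 without WT tumour 2, and 1, 4 and 6 without TNKO tumours 1, 2 and 3. Of the pathway lists, 1 gene, Psmb3, was called above the median level. Correlations of deviations between same-numbered tumours were 0.029, -0.016 and 0.0053, inside the range of -0.0789 to 0.0721 for tumours of unlike number. With 3 tumours in each group these values cannot decide whether same-numbered tumours were handled together. With the replicate block 0 members were called. Adjusted p of the members ran from 0.0721 to 1 over all settings. The cause of these changes was not tested.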
